A study of Mus musculus with 6 samples.

Results

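The genes Ppbp, Pf4, Itga2b, Gp1ba, Gp9 and Vwf, best known from megakaryocytes and platelets, were followed across 6 RNA-Seq libraries of mouse CD4+ T cells. They were found by symbol and make up 6 of the 24223 genes counted. They were selected on measured values of these same libraries, the CPM (a count scaled to the total of its library, times 1000000) of Ppbp and Itga2b, which was higher in Th17 than in Naive cells whereas that of red cell precursor genes was not. Their values in that contrast, and in the contrasts of Th1 cells that share its Naive or Th17 libraries, are therefore a description and carry no test. The libraries were 2 of non-activated Naive cells, 2 of Th17 cells and 2 of Th1 cells. Naive cells were CD4+CD44- T cells taken with a magnetic kit for CD4+CD62L+ cells from the pooled spleens and lymph nodes of C57BL/6 mice between 1 and 2 months of age, without further treatment. Th17 cells were Naive cells activated through CD3 and CD28 and grown with anti-IL-4, anti-IFN-γ, TGF-β, IL-6, IL-1β and IL-23. Th1 cells were Naive cells activated in the same way and grown with anti-IL-4, IL-12 and IL-2. Both cultures were harvested on the fifth day, and no step after the culture that sorted the T cells from other cells is given in the sources used here. The replicates were biological, but which mice or cultures each came from is not given, so p-values measure the spread between these libraries.

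Megakaryocytes are the large cells of bone marrow, and in mice also of spleen, that shed platelets. Platelets carry alpha granules packed with chemokines and clotting proteins, and their surface holds receptors that catch them on a damaged vessel wall and tie them to each other. Von Willebrand factor bridges collagen to the GPIb-IX-V receptor, and the integrin made of the Itga2b and Itgb3 chains then binds fibrinogen. Platelets have no nucleus but keep RNA from the megakaryocyte, so their transcripts can be found wherever either is present. In bulk libraries such as these, a smaller number of cells of a type and less RNA in each of them cannot be told apart.

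The genes lie at 5 places in GRCm38 (mm10) by the GENCODE vM21 annotation, and all are protein-coding. Ppbp (chr5:90768518-90770063) and Pf4 (chr5:90772435-90773383) are neighbours on the plus strand, with 2371 bases between them. Gp1ba (chr11:70639122-70642036, plus strand) and Itga2b (chr11:102453297-102470122, minus strand) share chromosome 11, and Gp9 (chr6:87778072-87779768, plus strand) and Vwf (chr6:125546774-125686679, plus strand) share chromosome 6. An annotated small RNA, Gm23563, overlaps 251 bases of Itga2b on the same strand, and no other annotated gene overlaps any of the 6. The RefSeq promoter table (GRCm38.p6) held a window of 250 bases before and 50 after the start for 5 of the genes. The stretches before the start are shown for the neighbouring chemokine genes and for the genes of the GPIb-IX-V receptor, because the first pair had the highest levels per kilobase in Th17 cells and because GATA and ETS proteins are textbook regulators of megakaryocyte genes. Each is written 5′ to 3′ on the strand of the gene, and capitals mark a match to a motif searched on both strands.
Ppbp, chr5:90768268-90768517, strand +: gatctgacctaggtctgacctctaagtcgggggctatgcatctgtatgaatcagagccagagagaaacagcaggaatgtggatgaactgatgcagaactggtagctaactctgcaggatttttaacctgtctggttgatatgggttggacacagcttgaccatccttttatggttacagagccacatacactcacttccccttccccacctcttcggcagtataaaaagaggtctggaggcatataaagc
Pf4, chr5:90772185-90772434, strand +: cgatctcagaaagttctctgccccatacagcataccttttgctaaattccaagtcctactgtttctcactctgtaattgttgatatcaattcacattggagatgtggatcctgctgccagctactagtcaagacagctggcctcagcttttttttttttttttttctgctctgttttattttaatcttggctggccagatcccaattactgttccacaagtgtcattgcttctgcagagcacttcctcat
Gp1ba, chr11:70638872-70639121, strand +: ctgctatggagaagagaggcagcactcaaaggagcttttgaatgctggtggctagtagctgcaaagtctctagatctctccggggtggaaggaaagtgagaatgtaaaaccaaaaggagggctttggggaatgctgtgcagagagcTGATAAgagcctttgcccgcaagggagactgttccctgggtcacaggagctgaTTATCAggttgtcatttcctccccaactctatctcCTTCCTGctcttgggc
Gp9, chr6:87777820-87778069, strand +: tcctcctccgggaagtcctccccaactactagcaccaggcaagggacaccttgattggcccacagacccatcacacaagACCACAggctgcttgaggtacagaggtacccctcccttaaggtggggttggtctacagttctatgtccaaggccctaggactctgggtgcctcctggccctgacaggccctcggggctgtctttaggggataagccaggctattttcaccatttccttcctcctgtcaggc

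The motifs searched were AGATAA and TGATAA for GATA proteins, CAGGAAG and CCGGAA for ETS proteins and TGTGGT for RUNX proteins. The paired GATA and the paired ETS motifs share letters but cannot match at the same place. The Gp1ba window held TGATAA at position -104 and, on the other strand, at position -51, together with CAGGAAG on the other strand at position -16, counted from the transcription start. In the Gp9 window TGTGGT stood on the other strand at position -171. The Pf4 window held its matches after the start, AGATAA at position 37 and CCGGAA on the other strand at position 15, and none before it. The windows of Ppbp and Itga2b held no match to these letters. Among 32851 promoter windows of the same length, 18.6% held either GATA motif, 26.2% either ETS motif and 16.8% the RUNX motif, so that each motif is common and a match is a description only.

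Library totals lay between 17742158 and 69080017 counts, with replicate 1 the deeper library of each of the 3 cell types. A count of 3, taken as the limit of detection, equals 0.0434 to 0.050 CPM in replicates 1 and 0.161 to 0.169 CPM in replicates 2. The intervals given with the values are exact Poisson intervals and cover counting error only, since amplified reads are not independent molecules. The libraries carried their labels: the 8 T cell markers summed to 3325 to 4496 CPM in all 6 libraries, Il17a reached 573 and 688 CPM in Th17 cells, and Tbx21, the Th1 regulator, 129 and 137 CPM in Th1 cells. Naive replicate 1 stood apart from Naive replicate 2 in genes of red cell precursors, with a summed level of 1703 against 258 CPM over 23 genes. The changes of the 6 genes against Naive cells are therefore also given without it, as is the count of other platelet genes called in Th17 over Naive cells. Results for the single lists and their genes against Naive cells include it.

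Ppbp encodes the precursor of the neutrophil-attracting chemokine CXCL7 and is one of the most abundant platelet transcripts. Its level was 0.0617 and 0 CPM in the Naive libraries, 66.3 and 88.2 CPM in the Th17 libraries and 16.8 and 5.78 CPM in the Th1 libraries. The Naive values rest on 4 counts and 0 counts, both at or near the limit of detection, whereas the Th17 values rest on 3975 and 1565 counts. Summed over libraries, the ratio of Th17 to Naive was 1487, with a counting interval from 580 to 5459, and that of Th1 to Naive was 303, with a counting interval from 118 to 1113. The 3 cell types did not overlap, in the order Th17, Th1, Naive, an order without overlap that 4.41% of all genes tested had.

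Pf4, its neighbour, encodes platelet factor 4 (CXCL4), a heparin-binding chemokine of the alpha granule. Its level was 3.93 and 0 CPM in the Naive libraries, 134 and 270.0 CPM in the Th17 libraries and 21.5 and 7.90 CPM in the Th1 libraries. The Naive replicates differed by more than counting error, since 255 counts in replicate 1 gave an interval of 3.47 to 4.45 CPM and 0 counts in replicate 2 an upper bound of 0.198 CPM. The order of the cell types was again Th17, Th1, Naive without overlap. Pf4 had the highest group mean of the 6 genes in Th17 cells also per kilobase of exon, at 280 ± 133 CPM per kb (SD, n = 2), ahead of Ppbp at 71.3 ± 14.3.

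Itga2b encodes the integrin αIIb chain (CD41), which pairs with the Itgb3 product as the platelet fibrinogen receptor. It was detected in all 6 libraries, at 16.7 and 5.11 CPM in Naive cells, 69.3 and 76.6 CPM in Th17 cells and 25.7 and 13.6 CPM in Th1 cells. The Th17 replicates of Itga2b lay close to each other. Both were above the other 4 libraries, an order that all 6 genes and 22.7% of all genes tested had. Naive replicate 1 lay above Th1 replicate 2, so the Naive and Th1 levels overlapped and these neighbours in the order did not differ beyond their spread.

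Gp1ba and Gp9 encode subunits of the GPIb-IX-V receptor for von Willebrand factor, Gp1ba the ligand-binding chain and Gp9 the small chain needed to bring the complex to the surface. Gp1ba stood at 1.87 and 2.04 CPM in Naive cells, 8.70 and 7.50 CPM in Th17 cells and 3.37 and 1.80 CPM in Th1 cells. Its Naive replicates were within counting error of each other, and Th1 replicate 2 lay below both of them, so Naive and Th1 overlapped. Gp9 stood at 0.571 and 0 CPM in Naive cells, 7.97 and 14.1 CPM in Th17 cells and 2.2 and 0.600 CPM in Th1 cells. Its cell types did not overlap, but Naive replicate 1 and Th1 replicate 2 were almost level, resting on 37 and 11 counts with overlapping counting intervals.

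Vwf encodes von Willebrand factor itself, made by megakaryocytes and by endothelial cells. It stood at 5.52 and 0.860 CPM in Naive cells, 19.5 and 12.9 CPM in Th17 cells and 8.47 and 2.83 CPM in Th1 cells. The Naive replicates differed by a factor of 6.42, the widest gap among the members with counts in all libraries, and Naive and Th1 overlapped. Per kilobase of exon Vwf was the lowest of the 6 in each Th17 library, at 1.21 and 0.803 CPM per kb.

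**Figure D1:**
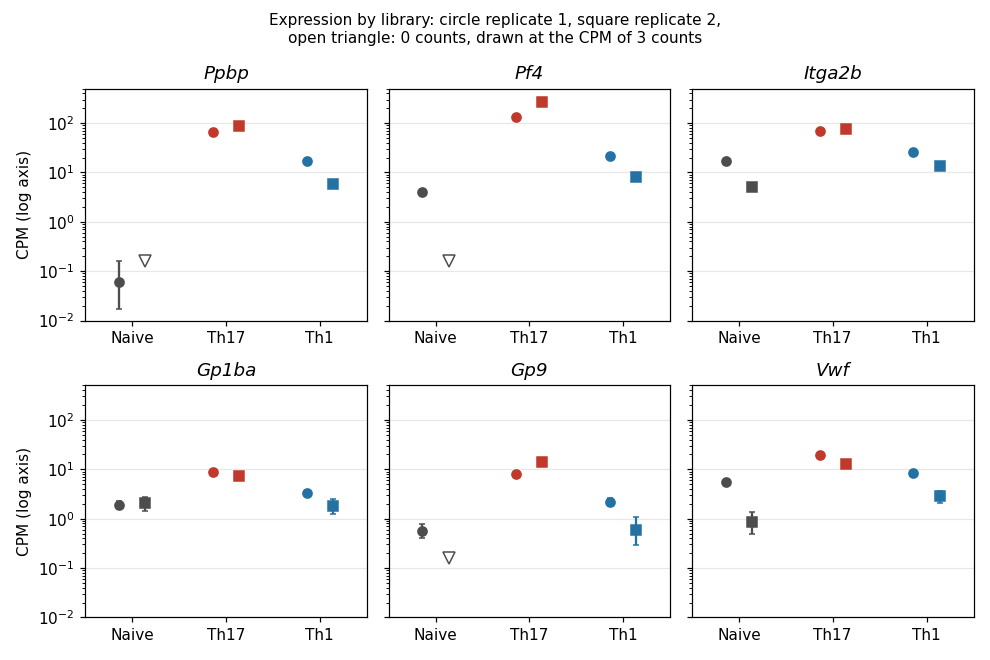
CPM of each gene on a log axis, by library; circles are replicate 1, squares replicate 2, bars the exact Poisson intervals of the counts, and open triangles mark libraries with 0 counts at the CPM of 3 counts. In all 6 panels both Th17 points lie above the other 4 libraries, and the Naive points of Ppbp are at most 0.0617 CPM.

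In the contrast used to choose the genes, both Th17 libraries were above both Naive libraries for all 6, where 32.1% of the 13607 genes tested had that order. The fitted log2 fold changes of Th17 over Naive were 10.64 (SE 0.79) for Ppbp, 6.55 (SE 1.14) for Pf4, 5.0 (SE 0.99) for Gp9, 2.75 (SE 0.52) for Itga2b, 2.31 (SE 0.75) for Vwf and 2.09 (SE 0.46) for Gp1ba. The chemokine genes and Gp9, which were at 0 in Naive replicate 2, thus stood at the top and the genes detected in all libraries at the bottom. Without Naive replicate 1, the Th17 means were at least 479-fold higher for Ppbp, at least 1254-fold for Pf4 and at least 68.4-fold for Gp9 than 3 counts in Naive replicate 2, and the fitted log2 fold changes were 3.90 for Itga2b, 4.28 for Vwf and 2.04 for Gp1ba. All 6 genes passed the filter on low counts, but Ppbp, Pf4 and Gp9 passed through the Th libraries, while the Naive libraries alone would have passed Itga2b, Gp1ba and Vwf.

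The comparison of Th1 with Naive cells asked whether the genes were also higher after the other culture. It shares the Naive libraries with the contrast that chose the genes, and Ppbp, Pf4 and Gp9 entered the fit through the Th libraries, so its values are given without a test. The fitted log2 fold changes of Th1 over Naive were 8.06 (SE 0.76) for Ppbp, 2.95 (SE 0.98) for Pf4 and 2.26 (SE 0.92) for Gp9, and they were 1.06 for Itga2b, 1.00 for Vwf and 0.66 for Gp1ba. Both Th1 libraries were above both Naive libraries for 3 of the 6, Ppbp, Pf4 and Gp9, where 18.7% of genes had that order. Without Naive replicate 1, the Th1 means were at least 70.1-fold higher for Ppbp, at least 91.1-fold for Pf4 and at least 8.68-fold for Gp9 than 3 counts in Naive replicate 2, and the fitted log2 fold changes were 2.2 for Itga2b, 2.98 for Vwf and 0.61 for Gp1ba.

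Between the cultures the genes were lower in Th1 than in Th17 cells. This comparison shares the Th17 libraries, whose high values chose the genes, so its values too are given without a test. Both Th1 libraries were below both Th17 libraries for all 6 genes, where 44.6% of genes tested had that order. The fitted log2 difference of Th1 from Th17 was -3.60 (SE 0.98) for Pf4, -2.74 (SE 0.88) for Gp9 and -2.58 (SE 0.48) for Ppbp. It was -1.70 (SE 0.50) for Itga2b, -1.43 (SE 0.44) for Gp1ba and -1.30 (SE 0.73) for Vwf. The difference of Pf4 was larger than that of Ppbp but had a wider spread between replicates.

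**Figure D2:**
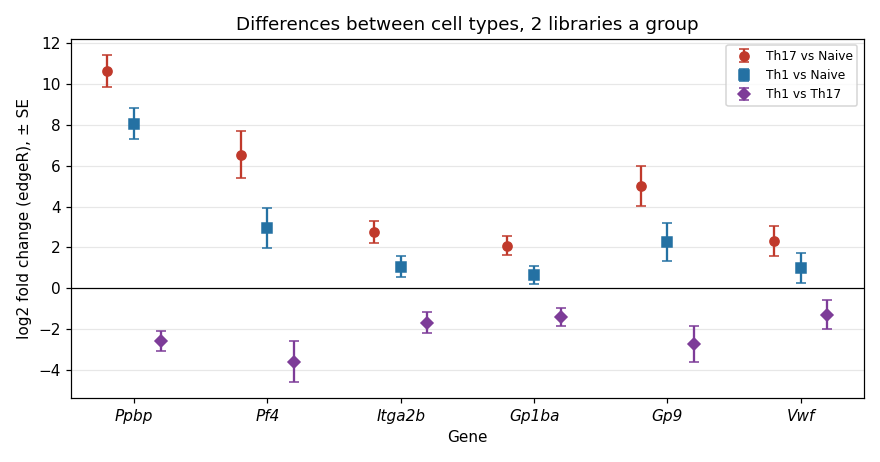
Fitted log2 fold change with its SE (vertical axis) of each gene for Th17 over Naive (circles), Th1 over Naive (squares) and Th1 over Th17 (diamonds), 2 libraries a group. The 6 Th1 over Th17 values lie between -3.60 and -1.30, and the Th17 over Naive values between 2.09 and 10.64; the latter chose the genes.

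The spread between replicates had a pattern of its own. In Th1 cells all 6 genes were higher in replicate 1 than in replicate 2, by factors of 1.88 for Gp1ba to 3.67 for Gp9, where 60.5% of all genes tested had that order. In Naive cells 5 of the 6 were higher in replicate 1, with Gp1ba the exception, where 48.8% of genes had that order. In Th17 cells replicate 1 was higher for 2 genes, Gp1ba and Vwf, where 63.6% of genes had that order, and Pf4 was higher in replicate 2 by a factor of 2.01. Summed over the 6 genes, the Naive libraries held 28.6 and 8.01 CPM, the Th17 libraries 306 and 469 CPM and the Th1 libraries 78.0 and 32.5 CPM. Whether the replicates differed in the cells they held was not tested.

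The make-up of the 6 genes also differed between libraries. Per kilobase of exon, Pf4 and Ppbp together led the sum in the Th libraries, with Pf4 at 68.1% and 76.5% in Th17 and 54.9% and 54.0% in Th1 cells, and Ppbp at 22.4% and 16.6% in Th17 and 28.6% and 26.3% in Th1 cells. Naive replicate 1 held Pf4 at 53.2% but Ppbp at 0.556%, and Naive replicate 2 held neither and was made up of Itga2b at 53.8% and Gp1ba at 43.2%, with Vwf at 3.07%. The ratio of Pf4 to Itga2b per kilobase was 1.78 and 0 in the Naive libraries, 14.6 and 26.7 in those of Th17 cells and 6.33 and 4.41 in those of Th1 cells, with no overlap between cell types. The ratio of Itga2b to Gp1ba was 3.97 and 5.09 in Th17 and 3.79 and 3.76 in Th1 libraries, while it was 4.45 in Naive replicate 1 and 1.25 in Naive replicate 2. The genes therefore did not keep 1 fixed ratio to each other across the libraries. These ratios rest on values that chose the genes and carry no test.

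**Figure D3:**
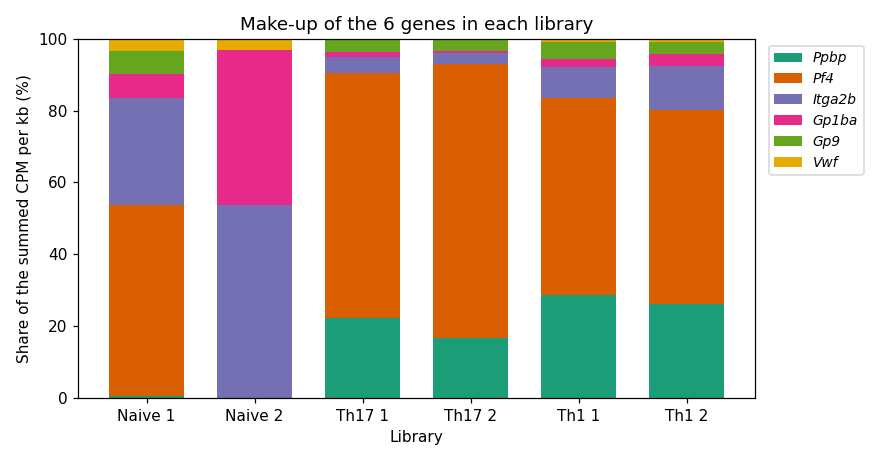
Share of each gene in the summed CPM per kilobase of exon of the 6 genes (vertical axis, %), by library. Pf4 is the largest part in 5 of the 6 libraries, and Naive replicate 2 holds Itga2b and Gp1ba in its place.

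The partners of these proteins, which the choice did not name, did not all follow them. A gene was called at an adjusted p under 0.01, by edgeR's quasi-likelihood test with Benjamini-Hochberg adjustment over all genes tested, with an absolute log2 fold change above 1. Gp1bb, which is joined to Gp1ba in the receptor, had 0.756 and 0.0537 CPM in Naive, 11.7 and 18.8 CPM in Th17 and 2.30 and 1.14 CPM in Th1 libraries, and rose in Th17 over Naive cells by 5.03 on the log2 scale (SE 0.81, edgeR adjusted p = 0.0034). Gp5, the remaining subunit of that receptor, stood at 4.40 and 0.645, 8.29 and 8.68, and 2.98 and 1.47 CPM in Naive, Th17 and Th1 libraries, and its log2 fold change of 1.72 did not pass (SE 0.72, edgeR adjusted p = 0.13). Itgb3, the partner of Itga2b, had another order, lowest in Th17 cells at 125 and 101 CPM, against 141 and 210 CPM in the Naive libraries and 323 and 534 CPM in Th1 libraries. It rose in Th1 over Th17 cells by 2.16 on the log2 scale (SE 0.35, edgeR adjusted p = 0.0039), the comparison in which Itga2b was lower. Itgav, which also pairs with Itgb3 and is found on many cells, stood at 20.6 to 42.7 CPM over the 6 libraries and passed in no contrast.

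Other genes of platelets and megakaryocytes were read from 5 lists with 58 genes, of which 56 were tested. In Th17 over Naive cells 17 rose (30.4%, against 4.01% of all genes tested) and 2 fell (3.57%, against 1.43%), with a median log2 fold change of 1.43 where the median of all genes was -0.02. The median was the same with Gp6 and G6b, at 0 in both Naive libraries, put at the bound given by 3 counts. Of the 39 genes that the Naive libraries alone would have passed through the filter, 7 rose. The others that rose passed only with the Th libraries, which favours a rise over Naive cells. The share of all genes passing by the Naive libraries alone that rose was not taken, so 30.4% and 4.01% are not matched for this. The count of 19 called genes was 15 without Naive replicate 1, 8 without Th17 replicate 1 and 11 without Th17 replicate 2. In Th1 over Naive cells 8 rose (14.3%, against 4.64%) and 6 fell (10.7%, against 2.81% of all genes tested), with a median of 0.64. In Th1 over Th17 cells 4 rose (7.14%, against 2.70%) and 5 fell (8.93%, against 2.83%), with a median of -1.28. This count of 9 was 3 without Th17 replicate 1, 2 without Th17 replicate 2, 3 without Th1 replicate 2, 17 without Naive replicate 1 and 19 without Naive replicate 2.

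Among 16 receptor genes, all tested, 6 rose in Th17 over Naive cells and none fell by edgeR (1 fell at an unadjusted p under 0.05, and 0 by DESeq2). Those that rose were Gp6, the collagen receptor, Clec1b, the podoplanin receptor CLEC-2, P2rx1, an ATP-gated channel, F2rl2, a cofactor of thrombin signalling, Treml1, an alpha granule receptor, and Selp, the P-selectin of activated platelets. Clec1b stood at 0.139 and 0 CPM in Naive, 8.04 and 13.1 CPM in Th17 and 1.35 and 0.273 CPM in Th1 libraries. F2rl2 was higher in both cultures, at 15.2 and 10.5 CPM in Th17 and 34.2 and 18.0 CPM in Th1 against 2.05 and 1.99 CPM in Naive libraries, and rose in both (edgeR adjusted p = 0.0021 and 0.00032). Ptger3, a prostaglandin E2 receptor, rose in Th1 cells by 4.75 over Naive on the log2 scale (SE 0.40, edgeR adjusted p = 0.0001), as did Itga2, the collagen-binding integrin chain. The most abundant of the list, Cd9, Tbxa2r and Cd226, which T cells also carry, passed in no contrast.

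Of the granule and coagulation genes 13 of 14 were tested, and 5 rose in Th17 over Naive cells and none fell by edgeR (0 at an unadjusted p under 0.05, and 0 by DESeq2). Thbs1, the alpha granule protein thrombospondin-1, had the highest Th17 level of those that rose, with 150 and 99.9 CPM in Th17, 21.6 and 4.58 CPM in Th1 and 0.247 and 0.0537 CPM in Naive libraries. It rose over Naive by 9.35 in Th17 (SE 0.85, edgeR adjusted p = 0.00018) and by 6.31 in Th1 cells (SE 0.79, edgeR adjusted p = 0.00074), and it fell from Th17 to Th1 (edgeR adjusted p = 0.0093). Serpine2 and Pdgfb, a protease inhibitor and a growth factor that other cells also make, rose in both cultures, while F5, clotting factor V, and Clu, clusterin, passed in Th17. Sparc, a matrix protein, rose in Th1 cells by 8.59 on the log2 scale over Naive (SE 0.88, edgeR adjusted p = 0.00028) at 28.8 and 97.9 CPM. F13a1, the clotting factor XIII A chain shared with macrophages, was highest in Naive cells, at 25 and 16.2 CPM, and fell in Th1 cells (edgeR adjusted p = 0.0015). Srgn, Nbeal2 and Rab27b, the most abundant of the others, passed in no contrast.

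Of the cytoskeleton and signalling genes 11 of 12 were tested, and 5 rose in Th17 over Naive cells, namely Tubb1, Mylk, Plek, Alox12 and Ptgs1. Tubb1, the β1-tubulin of the platelet's marginal band, stood at 0.0926 and 0 CPM in Naive, 9.25 and 13.5 CPM in Th17 and 2.06 and 0.436 CPM in Th1 libraries, and rose in both cultures (edgeR adjusted p = 0.0011 and 0.0093). Plek, pleckstrin, which other blood cells also express, rose in Th17 cells by 3.25 on the log2 scale (SE 0.46, edgeR adjusted p = 0.0017), at 68.9 and 97.6 CPM against 11.8 and 6.07 CPM. Rasgrp2, the Rap activator of platelets that naive T cells also use, fell in both, from 285 and 460.5 CPM in Naive to 82.9 and 66.2 CPM in Th17 and 54.8 and 94.5 CPM in Th1 libraries (edgeR adjusted p = 0.0034 and 0.0046). Fermt3 (kindlin-3) and Bin2, abundant in T cells, passed in no contrast.

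The transcription factors of the megakaryocyte lineage did not rise with the platelet genes. None of 12 tested rose in Th17 over Naive cells by edgeR (0 at an unadjusted p under 0.05, and 0 by DESeq2), and Zfpm1, the GATA1 partner FOG1, fell by 3.92 on the log2 scale (SE 0.45, edgeR adjusted p = 0.00066). The median log2 fold change of the list was -0.99 in Th17 and -2.13 in Th1 over Naive cells, and in Th1 cells none rose by edgeR (1 at an unadjusted p under 0.05, and 0 by DESeq2) and 4 fell, Nfe2, Gfi1b, Tal1 and Lyl1. Gata1, the main GATA factor of megakaryocytes, red cell precursors and mast cells, stood at 99.4 and 22.9 CPM in Naive, 11.8 and 11.9 CPM in Th17 and 51.3 and 78.2 CPM in Th1 libraries, so it was lowest where Pf4 and Ppbp were highest, without passing in any contrast. Nfe2, required for platelet release, stood at 52.0 and 12.1, 19.3 and 20.8, and 2.24 and 1.31 CPM in Naive, Th17 and Th1 libraries. Fli1 and Runx1, which T cells also express, lay between 58.0 and 148 CPM in all 6 libraries and passed in no contrast. Naive replicate 1 was above Naive replicate 2 for Gata1, Nfe2, Gfi1b and Tal1, as it was for the genes of red cell precursors, which share these factors.

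**Figure D4:**
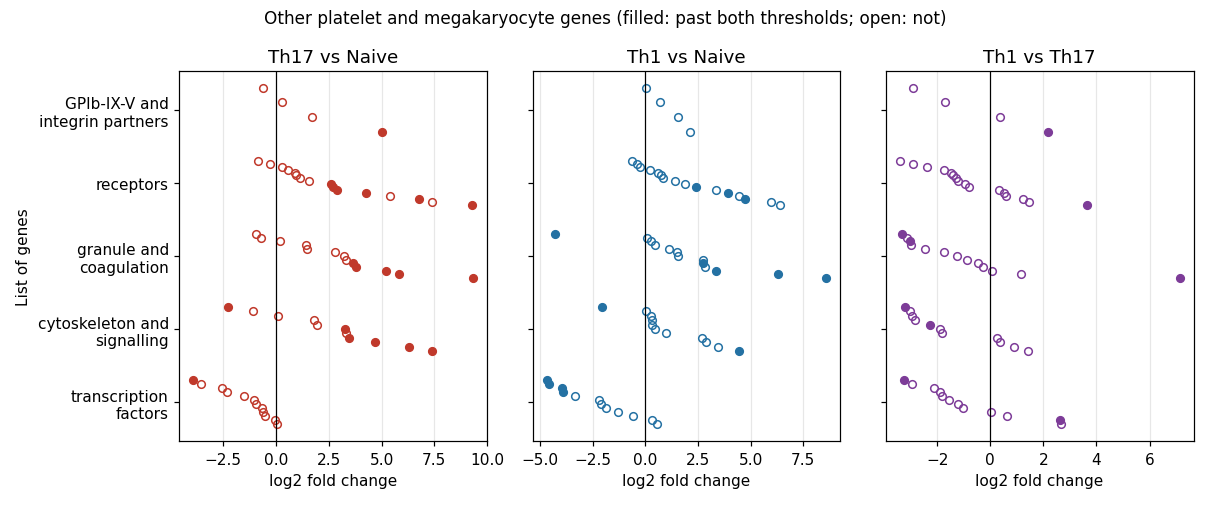
Fitted log2 fold change (horizontal axis) of the tested genes of the 5 lists in the 3 contrasts, 1 point a gene, sorted within each list; filled points passed both thresholds. In the panel of Th17 over Naive the called receptor, granule and cytoskeleton genes lie to the right, except Rasgrp2, and no called transcription factor does.

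Ppbp and Pf4 belong to a cluster of CXC chemokine genes, and CXCR2 is the receptor for the product of Ppbp. Cxcl2, Cxcl3 and Cxcl5 are neutrophil-attracting chemokines of the cluster. They stood at no more than 0.139 CPM in Naive and at 2.57 CPM or more in Th17 libraries. All 3 entered the fit only through the Th17 libraries, so their differences are given without a test. Their levels differed between the Th17 replicates, with Cxcl3 at 7.97 and 38.4 CPM, Cxcl2 at 2.57 and 8.74 CPM and Cxcl5 at 2.97 and 6.99 CPM, each higher in replicate 2 as Ppbp and Pf4 were. Cxcl1 had 0.350 and 1.07 CPM in Th17 libraries and also entered the fit only through them, and Cxcl15 was at 0 in all 6 libraries. In Th1 cells these 3 chemokines were at most 0.304 CPM, while Ppbp and Pf4 were at 5.78 CPM or more. The receptor genes Cxcr1 and Cxcr2 rose in both cultures, Cxcr2 to 14.0 and 8.0 CPM in Th17 and 33.9 and 30.1 CPM in Th1 libraries. Cxcr2 passed the filter only with the Th libraries, which favours a rise over Naive cells. Between the cultures Cxcr1 rose in Th1 (edgeR adjusted p = 0.0040), while the difference in Cxcr2 did not pass (edgeR adjusted p = 0.027). Cxcr3, whose splice form is a receptor for platelet factor 4 in humans, fell in Th17 cells to 14.8 and 9.41 CPM and rose in Th1 cells to 114 and 144 CPM from 50.8 and 51.5 CPM in Naive.

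Among all genes tested, those with the pattern most like each member were ranked by Pearson's r of log2 CPM over the 6 libraries. With 6 libraries in 3 cell types r is high for many genes, and between 53 and 205 of 13606 genes exceeded 0.95 for each member. Itga2b and Gp9 were close to each other, Gp9 being first for Itga2b and Itga2b at rank 3 for Gp9 (r = 0.995). Gp1bb was among the first 5 of both Itga2b and Gp9 (r = 0.994 and 0.995), and Mmrn1, which encodes the platelet protein multimerin, was second for Vwf (r = 0.985). The other names at the top of these rankings were Smim3, Fam216a and Atp5j2 for Itga2b, Fam216a, Cox7a2 and Rab27b for Gp9, and Mir425, Fuom, Zwint and Gm166 for Vwf. For Pf4 they were Irak1bp1, Odc1, Prss57, Fam216a and Aprt, with Gp9 at rank 12 (r = 0.991) and Itga2b at rank 36. For Ppbp they were Tmem51, Lgalsl, Cdkn2d, Piwil2 and Pilrb2, and the nearest member, Gp9, was at rank 464 (r = 0.914). For Gp1ba they included Dnmt3l, Dfna5, Gap43 and Adarb1, and its nearest member, Itga2b, was at rank 520 (r = 0.902). The libraries share depth and cell type, so these r are descriptions without a test.

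Markers of other cells moved with the cell types too. The 17 neutrophil genes in the files summed to 447 and 267 CPM in Naive, 3745 and 3252 CPM in Th17 and 42.1 and 58.8 CPM in Th1 libraries, led by S100a8 and S100a9. Of 17 tested 12 rose (70.6%, against 4.01% of all genes tested) and 1 fell (5.88%, against 1.43%) in Th17 over Naive cells. Of the 8 that the Naive libraries alone would have passed through the filter, 3 rose. The others that rose passed only with the Th libraries, which favours a rise over Naive cells. The 16 macrophage and monocyte genes summed to 212 and 97.7, 847 and 1360.0, and 148 and 155 CPM. A few genes carried these sums. Ccr2 stood at 507 and 457 CPM in Th17 and 124 and 130 CPM in Th1 libraries, and Lyz2 at 243 and 759 CPM in Th17 libraries. Apoe stood at 135 and 45.4 CPM in Naive libraries. Of 15 tested 7 rose in Th17 over Naive cells (46.7%, against 4.01%), Ccr2 and Lyz2 among them, and 1, Apoe, fell (6.67%, against 1.43%). Of the 7 that the Naive libraries alone would have passed, 4 rose. The 17 mast cell, basophil and eosinophil genes summed to 246 and 70.1, 346 and 698, and 133 and 182 CPM. Of 15 tested 4 rose in Th17 over Naive cells (26.7%, against 4.01%) and none fell by edgeR (1 at an unadjusted p under 0.05, and 1 by DESeq2). Of the 11 that the Naive libraries alone would have passed, 2 rose. Kit and Siglecf went the other way without passing, Kit from 105 and 32.1 CPM in Naive to 14.0 and 11.4 CPM in Th17 libraries. The sums of these 3 lists, the last of them joining mast cells, basophils and eosinophils, were thus higher in both Th17 libraries than in the other 4. The 6 platelet genes had the same order. The neutrophil sum was lower in Th1 than in Naive cells, whereas the sum of the 6 platelet genes was higher in Th1 cells. The neutrophil genes were divided in that contrast. S100a8, S100a9, Ltf, Ngp and Lcn2 rose (29.4%, against 4.64% of all genes tested). The Naive libraries alone would have passed none of these through the filter. Elane, Mpo, Prtn3, Ctsg, Cebpe and Csf3r fell (35.3%, against 2.81%). The part of neutrophils, macrophages, monocytes, mast cells, basophils and eosinophils in the levels of the 6 genes was not tested.

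Red cell precursor genes went the other way. Over 23 genes they summed to 1703 and 258 CPM in Naive libraries. The sums were 17.4 and 19.4 CPM in Th17 and 9.05 and 6.70 CPM in Th1 libraries. The most abundant listed were Car1, Car2 and Aqp1. The choice of the 6 genes rested in part on red cell precursor genes not being higher in Th17 than in Naive cells. Their values in that contrast are therefore a description and carry no test. The globin genes Hbb-bs, Hbb-bt, Hba-a1 and Hba-a2 were listed at 0 in all 6 libraries, also in Naive replicate 1, where Car1 stood at 486 CPM. Whether globin RNA was absent or was not counted was not tested. Endothelial cells are the other main source of Vwf. Of 16 of their genes 10 were tested and none was called in Th17 over Naive cells by edgeR (4 at an unadjusted p under 0.05, and 1 by DESeq2), and the list summed to 181 to 240.1 CPM in all libraries, of which Pecam1, found on T cells as well, made up 141 to 237 CPM. Cldn5 was at 0 in all 6 libraries.

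**Figure D5:**
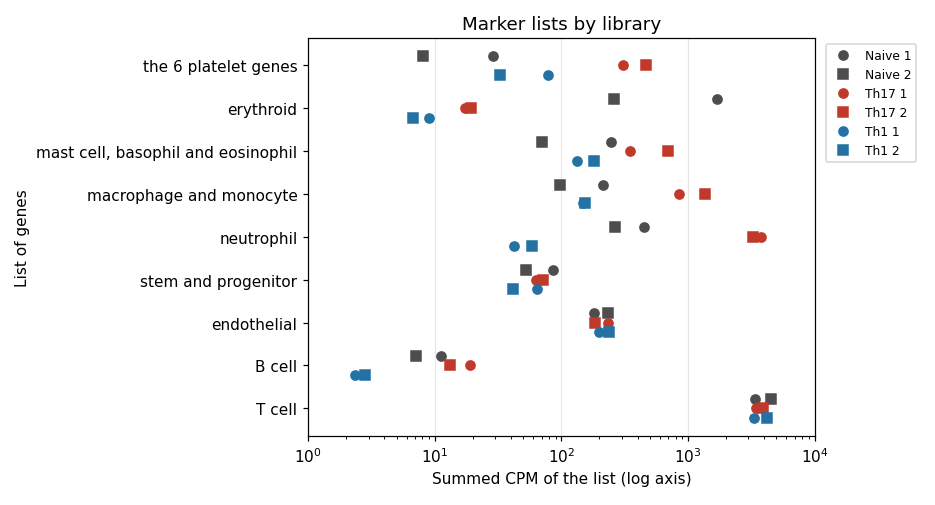
Summed CPM (horizontal log axis) of the 6 platelet genes and of 8 lists of marker genes in each library, circles for replicate 1 and squares for replicate 2. The 6 platelet genes sum to 306 and 469 CPM in Th17 libraries, and the red cell precursor genes are highest in the Naive libraries, at 1703 and 258 CPM.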

How the data were processed

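RNA-Seq libraries of Naive, Th17 and Th1 cells, 2 each, were analysed. Per the labels, cDNA was made from polyadenylated RNA by Smart-seq2. The authors mapped the reads to mm10 with HISAT2 2.2.1, removed duplicates according to the methods, and counted reads per gene with HTSeq 0.13.5, and the deposited values are raw counts per gene for each library. The methods state default HTSeq settings and the supplementary code a reverse-stranded one. The submitters' processing notes also name StringTie 2.1.7 and DESeq2 1.34.0, whose values were not used here. CPM is the count divided by the total count of the library and multiplied by 1000000, and CPM per kb divides it by the exon length of GENCODE vM21.

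The 6 genes, the gene lists and the tests were chosen with earlier results of these data known. Counts were fitted in edgeR 4.0.16 (R 4.3.3) with filterByExpr, TMM scaling (factors 0.862 to 1.09) and the quasi-likelihood F-test, with all 6 libraries in 1 model and cell type as the only term, which left 13607 of 24223 genes. A call needed an adjusted p (Benjamini-Hochberg) under 0.01 with a log2 fold change beyond 1 in either direction. Depth ranged from 17742158 to 69080017 counts.

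The genes named are the 6 members, their receptor partners, the CXC genes, up to 10 called genes of the other platelet lists by adjusted p, up to 3 more of each list by mean CPM, and the 5 genes most like each member in log2 CPM (prior count 2). A gene that met this rule is not reported here. Others were named after their values were seen. Of the listed symbols Mpig6b, Epb42 and Adgre1 were matched by older names (G6b, Epb4.2, Emr1). Promoter sequences are from RefSeq (GRCm38.p6). The Itga2b stretch overlapped annotated exons and is not shown. The alternatives tried were DESeq2 1.42.0, other scaling, other filters, a replicate block, libraries thinned to the smallest total, a threshold of 0.05 for the adjusted p, the 4 libraries compared alone, TMM-scaled CPM for the levels, and leaving out each library.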

Additional observations from a re-analysis of the deposited data

How the results depend on the processing

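Over the alternatives no log2 fold change of a member changed sign. With no filter on low counts the genes called numbered 2154 for Th17 over Naive, 2259 for Th1 over Naive and 2232 for Th1 over Th17 (739, 1014 and 752 as reported), with DESeq2 1741, 1935 and 1829, at an adjusted p under 0.05 2063, 2164 and 2112, and with at least 10 counts in every library 343, 674 and 411. Of the other platelet and megakaryocyte genes (19, 14 and 9 as reported), 32, 29 and 29 were called with no filter and 29, 25 and 26 at an adjusted p under 0.05. DESeq2 called 24 for Th1 over Naive and 23 for Th1 over Th17, at least 10 counts in every library left 8 for Th17 over Naive and 5 for Th1 over Th17, and library size alone gave 5 and the 4 libraries compared alone 19 for Th1 over Th17. Leaving out each library gave 319 to 885, 516 to 939 and 266 to 1016 genes and 8 to 19, 10 to 14 and 2 to 19 platelet genes, the lone library being assumed to vary like the other groups.

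The replicate numbers did not pair the libraries, since the correlations of replicate differences were -0.23, 0.17 and 0.08. With a replicate block, 1035, 1402 and 1041 genes and 24, 20 and 20 platelet genes were called. Ppbp, Pf4 and Gp9 have no value with at least 10 counts in every library, since a Naive library was below that. The 2 libraries a group, and 0 or few Naive counts for 3 of the 6 genes, limit what these data resolve; the cause of the differences between settings was not tested.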

Other observations

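Some lists of marker genes stood in no comparison above. The 9 stem and progenitor genes summed in Naive libraries to 85.6 and 52.8 CPM, in Th17 libraries to 63.2 and 71.9 CPM and in Th1 libraries to 64.4 and 41.5 CPM. Procr, the endothelial protein C receptor, was the 1 of them that rose in Th17 over Naive cells, by 6.04 on the log2 scale (SE 1.04, edgeR adjusted p = 0.0049), from 0.231 and 0 CPM to 6.90 and 13.2 CPM. Cd34, a surface protein of progenitors and endothelium, fell in Th1 over Naive cells by 3.43 on the log2 scale (SE 0.61, edgeR adjusted p = 0.0044). The 6 B cell genes summed to 11.1 and 7.09 CPM in the Naive libraries, 19.0 and 13.3 CPM in those of Th17 and 2.33 and 2.83 CPM in those of Th1 cells.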
